A study of Mus musculus with 20 samples.

Results

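The 10 genes followed here belong to the red cell lineage and were measured in wild-type and Runx2-deficient blood progenitors. They are the transcription factor genes Gata1, Klf1, Gfi1b and Zfpm1, the nuclear regulator gene Hemgn, and the early erythroid genes Car1, Car2, Ermap, Rhag and Tfrc. The genes were taken by name, as 10 of the 49997 genes in the deposited count tables, and all 10 were found in both tables. Polyadenylated RNA was sequenced from primary mouse bone marrow cells that had been cultured and sorted into a pair of populations, in 18 libraries. The population called HSC here (haematopoietic stem cells by surface phenotype) carried CD201, CD150, Kit and Sca1 and lacked lineage markers. The population called HPC here (progenitors) carried Kit and Sca1 and lacked lineage markers, CD201 and CD150. Each population came from cells without a knockout (WT) and from cells with 1 (het) or both (hom) copies of Runx2 knocked out, with 3 libraries in each of the 6 groups. RUNX2, its product, is a RUNX family transcription factor. The series used mice with a floxed Runx2 allele as well as CRISPR knockout, but neither the method nor a Cre driver is stated for a given library. The labels also leave out the age of the animals, the time in culture, and whether the 3 libraries of a group come from separate animals or cultures, so the p-values measure a spread between libraries that may be technical.

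Erythroid cells arise from progenitors that can also make megakaryocytes. GATA1 binds GATA motifs in the regulatory DNA of erythroid and megakaryocytic genes, with ZFPM1 (also called FOG1) as its cofactor, while KLF1 acts on CACCC-type motifs of red cell genes and GFI1B is a repressor that both lineages need. HEMGN is a nuclear protein of early blood cells whose gene is a known target of GATA1. CAR1 and CAR2 are cytosolic carbonic anhydrases, ERMAP and RHAG are proteins of the red cell membrane, and TFRC is the transferrin receptor, through which erythroid precursors and other dividing cells take up iron.

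The libraries held 16663497 to 27061457 counts. A level of 3 counts, about the upper 95% bound where 0 counts are seen, corresponded to a CPM (the count scaled to library size) of 0.103 to 0.192, counting error only. The knocked-out gene followed the labels: in HSC the mean of Runx2 went from 122 ± 3.5 CPM (WT) over 85.1 ± 3.9 (het) to 26.0 ± 1.7 (hom), and in HPC from 126 ± 3.9 over 104 ± 4.4 to 23.5 ± 1.1 (± SD, n = 3 libraries). Procr, the gene for CD201, averaged 45.5 CPM in WT HSC and 5.61 in WT HPC, and Slamf1, the gene for CD150, 19.0 and 10.7 CPM. Ly6a, the gene for Sca1, had 0 counts in all 18 libraries although both populations were sorted as Sca1-positive, so the Sca1 part of the gate could not be checked. The Y-linked gene Ddx3y lay between 121 and 167 CPM in the HSC libraries and had 0 counts in the HPC libraries, while Xist lay between 0 and 1.26 CPM in HSC and 2539 and 4475 in HPC. Cell type and donor sex therefore cannot be told apart in any comparison of HSC with HPC.

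Coordinates are those of the deposited annotation (mm10), from the start to the end of each gene. Gata1 lies at chrX:7959260-7976663 (minus strand), Klf1 at chr8:84901982-84905291 (plus), Gfi1b at chr2:28609450-28621982 (minus) and Zfpm1 at chr8:122281856-122337862 (plus). Hemgn lies at chr4:46393989-46404183 (minus), Car1 at chr3:14766214-14808365 (minus), Car2 at chr3:14886269-14900770 (plus), Ermap at chr4:119175457-119190013 (minus), Rhag at chr17:40811099-40844094 (plus) and Tfrc at chr16:32608896-32632794 (plus). The values are counts over exons without regard to strand. Predicted genes overlap 8.82% of the exon bases of Gata1 and 7.36% of those of Gfi1b, where reads are counted for neither gene, so the levels of these 2 genes are somewhat uncertain. The exons of the other 8 members overlap no other gene.

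Promoters are shown for 3 members that the HPC results turn on: Gata1, which fell in het, Hemgn, which fell in het and hom, and Ermap, which rose in hom. Each line gives the 250 bases before the start site that the RefSeq table (GRCm38.p6) holds, on the gene's strand, 5′ to 3′, at chrX:7967911-7968160, chr4:46404184-46404433 and chr4:119189996-119190245 (all minus strand). Capitals mark matches on either strand to a GATA motif (AGATAA, its variant with a final G, AGATAG, and the same pair with an initial T, which are TGATAA or otherwise TGATAG), a RUNX motif (TGTGGT, or the rarer form TGCGGT) or a CACCC-type KLF motif (CCNCNCCC).
Gata1: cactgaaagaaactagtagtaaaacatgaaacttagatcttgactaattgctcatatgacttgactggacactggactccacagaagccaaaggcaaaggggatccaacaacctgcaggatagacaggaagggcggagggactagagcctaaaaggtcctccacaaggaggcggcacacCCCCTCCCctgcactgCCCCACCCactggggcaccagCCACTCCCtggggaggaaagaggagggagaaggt
Hemgn: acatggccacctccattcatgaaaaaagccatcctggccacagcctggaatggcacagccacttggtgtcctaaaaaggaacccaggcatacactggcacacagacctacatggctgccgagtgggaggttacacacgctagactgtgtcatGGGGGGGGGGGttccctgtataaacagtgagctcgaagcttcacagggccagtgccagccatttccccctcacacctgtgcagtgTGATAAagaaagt
Ermap: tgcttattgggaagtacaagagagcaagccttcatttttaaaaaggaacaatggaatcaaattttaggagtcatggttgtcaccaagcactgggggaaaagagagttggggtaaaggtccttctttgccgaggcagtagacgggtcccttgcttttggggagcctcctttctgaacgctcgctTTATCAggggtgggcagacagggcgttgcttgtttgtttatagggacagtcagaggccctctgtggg
The Gata1 window, which lies inside the annotated gene and so belongs to a downstream start site, held 3 KLF matches, at 71, 55 and 34 bases before the start, and no GATA or RUNX match. The Hemgn window held the GATA match TGATAA 13 bases before the start, and 4 overlapping KLF matches in a run of G. The Ermap window held 1 GATA match, TTATCA on the strand shown, 67 bases before the start. Of the 10 members 8 had a promoter in the table. A GATA match occurred in 5 of these 8 (Klf1, Gfi1b, Hemgn, Ermap and Rhag), against 26.5% of all 32851 promoters of the table. A RUNX match occurred in 3 (Klf1, Rhag and 1 of the 2 Tfrc promoters), against 18.6%, and a KLF match in 5 (Gata1, Gfi1b, Zfpm1, Hemgn and Tfrc), against 45.9%. These matches are descriptions of the letters in a short window and not binding sites.

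In WT cells the members spanned a wide range, which is compared between genes as TPM (counts per exon length, scaled to the library). In WT HPC the highest mean was that of Car2, 304 TPM, and Tfrc (126 TPM) and Hemgn (111 TPM) followed, with overlapping libraries. Zfpm1 (76.8 TPM), Gfi1b (57.1 TPM) and Gata1 (22.9 TPM) came next, each with its 3 libraries apart from those of its neighbours. Car1 (6.48 TPM) and Klf1 (3.92 TPM) were lower and did not overlap, and Ermap (0.533 TPM) and Rhag (0.270 TPM) lay lowest and overlapped. In WT HSC the order at the top was Car2 (496 TPM), then Tfrc (113 TPM), Zfpm1 (103 TPM) and Hemgn (92.6 TPM), which overlapped in their libraries, then Gfi1b (43.3 TPM). The remaining 5 members, Gata1 (0.749 TPM), Klf1 (0.595 TPM), Ermap (0.156 TPM), Rhag (0.0259 TPM) and Car1 (0.0255 TPM), were near the limit of counting in HSC and did not pass the filter on low counts there.

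**Figure D1:**
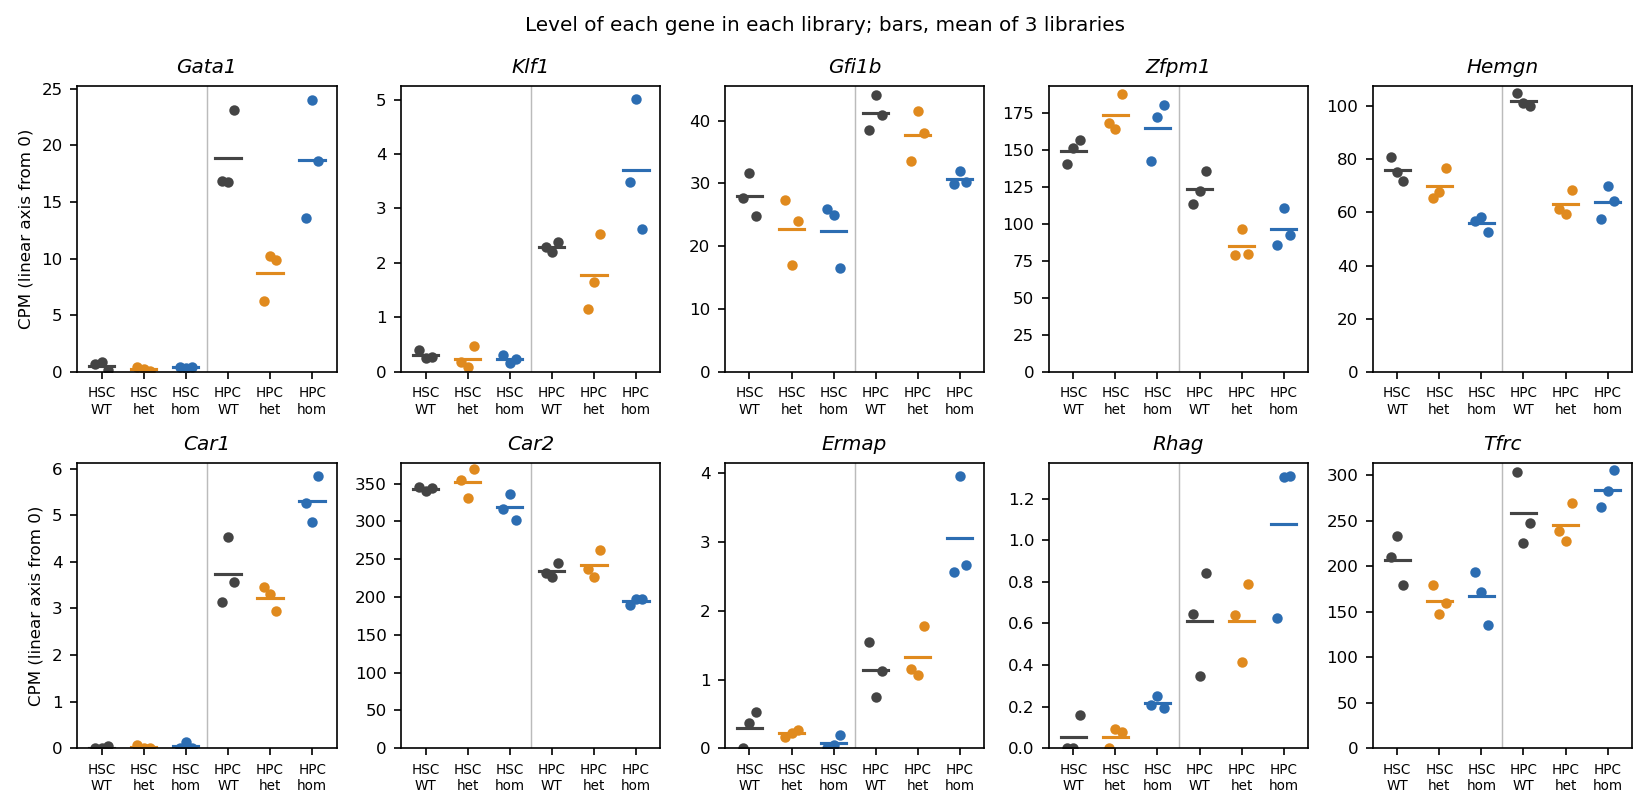
Level of each of the 10 genes in each of the 18 libraries, in CPM on linear axes that start at 0; points are libraries and horizontal bars the mean of 3. Gata1, Klf1, Car1, Ermap and Rhag sat near 0 in all HSC groups, and in HPC the 3 het libraries of Gata1 lay at 6.26 to 10.2 CPM, below those of WT and hom.

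Setting HSC against HPC, both WT, compares these genes between the stem cell and progenitor phenotypes, which here also differ in donor sex. In the edgeR quasi-likelihood test across both tables all 10 members differed at an adjusted p under 0.05, where 54.9% of all genes tested did, so the count itself says little about the members. Gata1, Klf1, Car1, Ermap and Rhag passed the filter on low counts only through HPC, where they are higher, so their calls as lower in HSC were largely fixed by the filter and their levels are given as a description. Of the 5 members tested in both populations, 3 were lower in HSC and 2 were higher. Gata1 was at 14, 20 and 3 counts in the WT HSC libraries (0.717, 0.822 and 0.120 CPM) and at 338, 336 and 492 counts in WT HPC (16.8, 16.7 and 23.1 CPM). The groups lay far apart, and HSC held 2.84% of the HPC level (95% exact binomial interval 1.99% to 3.94%, counting error only). In bulk RNA, fewer cells with a transcript and less of it per cell cannot be told apart. Klf1, with 8, 6 and 7 counts in WT HSC, stood at 13.3% of its HPC level (8.0% to 21.2%). Car1 had 0, 0 and 1 counts in WT HSC against 63, 91 and 76 in WT HPC, or 0.389% (0.0098% to 2.19%). Rhag, with 0, 0 and 4 counts, and Ermap, with 0, 9 and 13, were also sparse in WT HSC, at 9.41% (2.44% to 26.1%) and 28.1% (16.6% to 45.9%) of their HPC level. The WT HSC levels of Rhag and Car1 rest on HSC WT replicate 3 alone, and without it WT HSC held 0 counts of both. Ermap had 0 counts in HSC WT replicate 1, and without replicate 3 its log2 difference went from -1.85 to -2.47.

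Higher members differed less between the populations. Zfpm1 was 0.27 ± 0.10 higher in WT HSC on the log2 scale (± SE of the fit, edgeR adjusted p = 0.0282) and Car2 0.55 ± 0.064 higher (edgeR adjusted p = 2.22e-07), with no overlap of libraries for either gene. In the same log2 difference Hemgn was at -0.43 ± 0.079 (edgeR adjusted p = 8.97e-05), Gfi1b at -0.55 ± 0.15 (edgeR adjusted p = 0.00476) and Tfrc at -0.32 ± 0.13 (edgeR adjusted p = 0.0415), HSC being lower. Of the 5, Tfrc overlapped, with 179 to 233 CPM in HSC and 226 to 303 CPM in HPC; 64.5% of all genes tested did not overlap in this comparison. Leaving out 1 library ended the Zfpm1 difference for each of HSC WT replicates 2 and 3 and HPC WT replicates 1 and 2 (edgeR adjusted p = 0.0706, 0.0951, 0.127 and 0.0756), and the Tfrc difference for HSC WT replicates 1 and 3 and HPC WT replicate 1 (0.0737, 0.176 and 0.226).

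Members fell and rose in Runx2-deficient HPC. In het HPC, Gata1, Zfpm1 and Hemgn fell, and no member rose. That is 3 of 10 members called, where 16.1% of all genes tested were. In hom HPC, Hemgn, Gfi1b, Zfpm1 and Car2 fell and Ermap rose, 5 of 10 members, where 9.21% of all genes tested were called, and 3 of 10 without HPC WT replicate 3. Both comparisons use the same 3 WT libraries. The libraries of a knockout group and WT did not overlap for 3 of 10 members in het and 7 of 10 in hom. Of all genes tested, 33.6% did not overlap in het and 26.7% in hom. The median log2 fold change of the 10 members was -0.17 in het and 0.067 in hom HPC, against -0.0037 and -2e-04 over all genes tested.

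Gata1, the master regulator of the lineage, showed the largest fall. Its WT HPC libraries lay at 16.8, 16.7 and 23.1 CPM, the het libraries at 6.26, 10.2 and 9.83 CPM and the hom libraries at 13.6, 24.03 and 18.6 CPM. Every het library was below every WT and every hom library, while WT and hom overlapped. Gata1 fell by 1.10 ± 0.24 on the log2 scale in het (edgeR adjusted p = 0.0125), a call that no left-out library ended, and stood at -0.0056 ± 0.22 in hom against WT (edgeR adjusted p = 0.993). Zfpm1, the gene for its cofactor, was at 114, 122 and 136 CPM in WT, then 79.3, 96.6 and 79.5 in het and 86.1, 111 and 92.8 in hom HPC. Both knockout groups lay below WT without overlap. It fell by 0.54 ± 0.10 in het (edgeR adjusted p = 0.00202) and by 0.36 ± 0.0995 in hom (edgeR adjusted p = 0.0367). The hom call was lost without HPC WT replicate 2 or 3 or HPC hom replicate 1 or 3 (edgeR adjusted p = 0.101, 0.146, 0.109 and 0.141).

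Gfi1b, the repressor gene, had 38.5, 44.2 and 40.9 CPM in WT HPC, 33.7, 41.6 and 38.1 in het and 29.9, 32.0 and 30.2 in hom. The hom libraries lay below all others of WT and het. The fall in hom was 0.42 ± 0.084 on the log2 scale (edgeR adjusted p = 0.00263), and het stood at -0.12 from WT without passing the test. Klf1, the activator of red cell genes, had low levels of 2.29, 2.19 and 2.39 CPM in WT, against 1.15, 1.65 and 2.52 in het and 3.48, 5.00 and 2.62 in hom HPC. The hom libraries were above those of WT without overlap, but the log2 difference of 0.69 ± 0.27 did not pass (edgeR adjusted p = 0.127; 0.0443 without HPC hom replicate 3).

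Hemgn had the smallest p of the members in both comparisons with WT. It was at 105, 101 and 100.2 CPM in WT HPC, 61.4, 59.3 and 68.4 in het and 57.5, 69.9 and 64.5 in hom. All 6 knockout libraries lay below 70 CPM and all 3 WT libraries above 100, and het and hom overlapped each other. It fell by 0.69 ± 0.0725 in het (edgeR adjusted p = 2.75e-06) and by 0.67 ± 0.072 in hom (edgeR adjusted p = 4.71e-06).

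Of the carbonic anhydrase genes, Car2 fell in hom HPC and Car1 did not pass. Car2 was at 232, 227 and 245 CPM in WT, then 238, 227 and 262 in het and 190, 198 and 197 in hom HPC. The hom libraries lay below all WT and het libraries. Car2 fell by 0.26 ± 0.062 in hom (edgeR adjusted p = 0.00902, and 0.0645 without HPC WT replicate 3). Car1 was at 3.13, 4.54 and 3.56 CPM in WT, against 3.45, 3.30 and 2.94 in het and 5.25, 4.85 and 5.84 in hom. Its hom libraries lay above all others, and the log2 difference from WT, 0.51 ± 0.18, did not pass (edgeR adjusted p = 0.0865).

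Of the membrane protein genes, Ermap was at 1.54, 0.748 and 1.13 CPM in WT HPC, 1.15, 1.06 and 1.79 in het and 2.57, 3.96 and 2.67 in hom. All hom libraries exceeded all WT and het libraries. Ermap rose by 1.43 ± 0.30 on the log2 scale in hom (edgeR adjusted p = 0.00384), the largest change of a member in that comparison, from 70 counts summed over the WT libraries to 174 over the hom libraries. Rhag held 13, 7 and 18 counts in WT, 10, 7 and 15 in het and 11, 25 and 26 in hom HPC. These groups overlapped, and at these low counts a difference was not detected (log2 0.82 ± 0.41 in hom against WT, edgeR adjusted p = 0.255). The iron uptake gene Tfrc ranged over 226 to 303 CPM in WT, then 228 to 270 in het and 265 to 306 in hom HPC, overlapped in all comparisons with WT and did not pass (log2 0.14 in hom, edgeR adjusted p = 0.435).

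**Figure D2:**
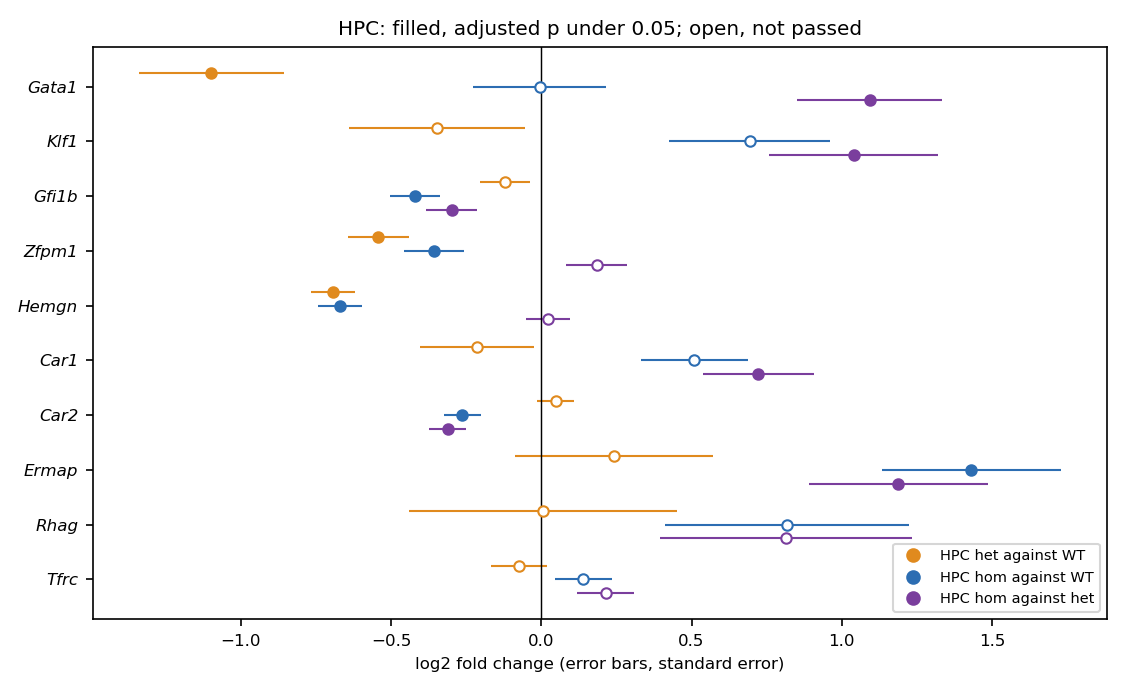
Log2 fold changes of the 10 genes in HPC with their standard errors, for het against WT, hom against WT and hom against het; filled points passed the edgeR test at an adjusted p under 0.05. Gata1 sat at -1.10 in het and near 0 in hom, whereas Ermap sat at 1.43 in hom and Hemgn near -0.7 in both.

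A direct comparison of hom with het HPC asked whether the 2 knockout genotypes differed. They differed in 6 of 10 members, where 9.4% of all genes tested were called. Gata1 (1.09 ± 0.24, edgeR adjusted p = 0.0210), Klf1 (1.04 ± 0.28, 0.0253), Car1 (0.72 ± 0.18, 0.0183) and Ermap (1.19 ± 0.30, 0.01695) were higher in hom on the log2 scale. Gfi1b (-0.30 ± 0.085, 0.0336) and Car2 (-0.31 ± 0.062, 0.00364) were lower in hom. Hemgn and Zfpm1, which were below WT in both genotypes, did not pass here, with log2 differences of 0.023 and 0.19. In all 6 called members the hom libraries were apart from the het libraries, as they were for 27.2% of all genes tested. Only Car2 kept its call whichever library was left out. Gata1 lost it without HPC hom replicate 3 (edgeR adjusted p = 0.0914). Klf1 lost it without HPC het replicate 1 or 2 or HPC hom replicate 2 (0.104, 0.0980 and 0.138), and Ermap without the same 3 libraries (0.0631, 0.0898 and 0.0910). Car1 lost it without HPC het replicate 2 or 3 or HPC hom replicate 3 (0.0577, 0.0694 and 0.0661). Gfi1b kept its call only without HPC het replicate 1, and without HPC het replicate 2 or 3 or HPC hom replicate 1, 2 or 3 its adjusted p was 0.184, 0.0844, 0.0951, 0.0541 and 0.0876. The number of members called fell to 2 without HPC het replicate 2 and to 3 without HPC hom replicate 2 or 3.

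In HSC 1 member changed with the genotype. Of the 5 members that passed the filter there (Gfi1b, Zfpm1, Hemgn, Car2 and Tfrc), Hemgn alone was called in hom against WT, where 2.01% of all genes tested were. Hemgn was at 80.9, 75.3 and 71.9 CPM in WT HSC, 65.3, 67.6 and 76.9 in het and 56.7, 58.2 and 52.6 in hom. The hom libraries lay below all WT and het libraries, and WT and het overlapped. It fell by 0.42 ± 0.083 in hom (edgeR adjusted p = 0.0205), a call lost without HSC WT replicate 1, 2 or 3 or HSC hom replicate 2 (edgeR adjusted p = 0.103, 0.0906, 0.0545 and 0.0737). In het against WT edgeR called 0 of the 5 (0.0334% of all genes), with Zfpm1 (log2 0.22) and Tfrc (-0.35) at an unadjusted p under 0.05. In hom against het edgeR called 0 of the 5 (0.0134% of all genes), with Hemgn (-0.31) at an unadjusted p under 0.05. DESeq2 called 0 in both of these comparisons. Groups of HSC libraries did not overlap for 25% of all genes tested in hom against WT. The share was 23.2% in het against WT and 16.2% in hom against het. The shared spread was wider in HSC, with a common dispersion of 0.0128 against 0.00483 in HPC.

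Among the other members tested in HSC, Zfpm1 was at 141, 152 and 157 CPM in WT HSC, 168, 165 and 188 in het and 143, 172 and 181 in hom, with het above WT. Tfrc was at 210, 233 and 179 CPM in WT, against 179, 148 and 159 in het and 193, 172 and 136 in hom, with het just below WT. Gfi1b ranged from 16.6 to 31.6 CPM over the 9 HSC libraries and Car2 from 302 to 369 CPM, and neither passed in any genotype comparison. The members below the filter stayed near the limit of counting in each genotype. Gata1 held 12, 6 and 2 counts in het and 8, 9 and 8 in hom HSC, Klf1 5, 2 and 12 and then 6, 4 and 5, and Car1 2, 0 and 0 and then 0, 3 and 0. Ermap held 0, 9 and 13 counts in WT, 5, 5 and 7 in het and 0, 1 and 4 in hom HSC, and Rhag 0, 0 and 4, then 0, 2 and 2, then 4, 6 and 4. No fold change is given for these.

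Whether a genotype acted differently in the 2 populations was tested as an interaction in the fit of 18 libraries. For het the test was added after the values had been seen, and it called 2 of 10 members, Zfpm1 and Hemgn, where 1.94% of all genes were called. Gata1, Klf1, Car1, Ermap and Rhag entered this fit only through HPC. Their HSC counts were too few to compare the effects, with standard errors of 0.74 to 1.44 in het. Only the 5 members tested in both populations therefore inform the counts of members called, for het and for hom. The het effect on Zfpm1 was 0.76 ± 0.14 higher in HSC than in HPC on the log2 scale (edgeR adjusted p = 0.00632), since Zfpm1 stood above WT in het HSC and below it in het HPC. That on Hemgn was 0.58 ± 0.11 higher (edgeR adjusted p = 0.00659), from -0.11 in HSC against -0.69 in HPC. For Gata1 the difference was 0.063 with a standard error of 0.93, so HSC held too few Gata1 counts to compare the effects. For hom edgeR called 0 of 10 members (2.79% of all genes), with 3 at an unadjusted p under 0.05. These were Zfpm1 (0.50 ± 0.14, edgeR adjusted p = 0.0619), Tfrc (-0.45 ± 0.18, 0.2) and Ermap, and DESeq2 called 2 of 10 members, Zfpm1 and Ermap. Ermap entered this fit only through HPC and held 5 counts in hom HSC, so no difference is given for it and nothing is read from its call.

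**Figure D3:**
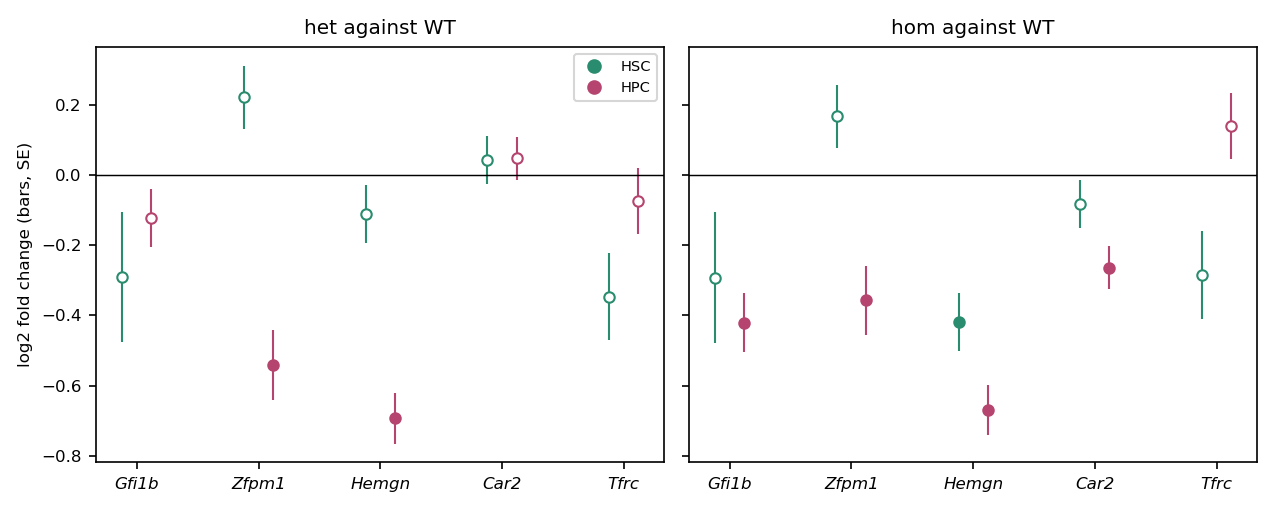
Log2 fold changes with standard errors of the 5 genes tested in both populations, for het (left) and hom (right) against WT; filled points passed the edgeR test within the population. Zfpm1 was below 0 in HPC and above 0 in HSC for both genotypes, at -0.54 against 0.22 in het.

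Other genes of the pathway, in lists written from general knowledge, were called in both directions, at shares to be read against the 16.1% (het) and 9.21% (hom) of all genes. Of 22 further erythroid regulators tested in HPC, 3 fell and 4 rose in het, and 2 fell and 1 rose in hom. Sox6, a regulator of globin switching, fell by 1.14 ± 0.18 in het (edgeR adjusted p = 0.000186) and by 0.54 ± 0.17 in hom (edgeR adjusted p = 0.0495), and Gata2, the stem cell GATA factor, by 0.31 ± 0.070 and 0.24 ± 0.070. Epor, the erythropoietin receptor gene, fell by 0.83 ± 0.26 in het (edgeR adjusted p = 0.042). Of the 4 that rose in het, Lmo2 rose by 0.33 ± 0.062, Foxo3 by 0.28 ± 0.062 and Nfe2l2 by 0.26 ± 0.057. Myb was the 1 that rose in hom, by 0.23 ± 0.060 (edgeR adjusted p = 0.0195). The list's median was -0.018 in het and 0.013 in hom.

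Late erythroid genes ranged from silent to well expressed in HPC. Of 21 tested, out of 35 in the tables, 1 rose and 3 fell in het, 4 rose and 1 fell in hom, and 7 rose and 0 fell in hom against het. The list's medians were -0.079, 0.37 and 0.55 on the log2 scale, against -0.0037, -2e-04 and 0.003 over all genes. Add2, the gene for a subunit of the membrane skeleton protein adducin, averaged 2.46 CPM in WT HPC, 3.05 in het and 5.51 in hom, and rose by 1.17 ± 0.23 in hom (edgeR adjusted p = 0.00272). Mfsd2b, a lipid transporter gene, averaged 37.1, 18.7 and 39.8 CPM, fell by 0.99 ± 0.18 in het and was 1.09 ± 0.19 higher in hom than in het (edgeR adjusted p = 0.00535). Aqp1, a water channel gene, rose by 0.77 ± 0.13 in hom. Some genes of terminal red cells were nearly silent: Alas2 averaged under 0.7 CPM and Hba-a1 under 0.2 CPM in each of the 6 groups, and Slc4a1 had 0 counts in all HSC groups, whereas the adult globin gene Hbb-bt averaged 63.5 to 110 CPM.

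Haem and iron genes were called at shares near those of all genes. Of 14 haem synthesis genes tested in HPC, 1 rose and 2 fell in het and 2 rose and 0 fell in hom, with Alas1, the housekeeping first enzyme, up by 0.62 ± 0.088 and 0.79 ± 0.087. Of 14 iron handling genes 1 rose and 1 fell in each of the 3 HPC comparisons, and in hom these were Slc40a1, the iron exporter gene (0.99 ± 0.20), and Tfr2 (-0.24 ± 0.068). In HSC edgeR called 0 of the 66 tested genes of these 4 lists in each genotype comparison. Of all genes it called 2.01% in hom against WT, 0.0334% in het against WT and 0.0134% in hom against het. At an unadjusted p under 0.05 were 12 in hom against WT, 7 in het against WT and 7 in hom against het. The share of all genes at that unadjusted threshold was not counted, so nothing is read from these numbers. DESeq2 called 2 in hom against WT (Aqp1 and Cbfa2t3) and 0 in the others.

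Markers of other lineages moved in HPC with the same genotypes. Of 18 megakaryocyte markers, 0 rose and 6 fell in het (median -0.94), and 0 rose and 3 fell in hom (median -0.049). Their summed level was 1092 to 1156 CPM in WT, against 798 to 970 in het and 817 to 1099 in hom HPC, with none of the 18 at 0. Gp5 fell by 1.51 ± 0.19, Gp9 by 1.01 ± 0.19 and Itga2b by 0.88 ± 0.11 in het, and Itga2b by 0.55 ± 0.10 in hom. Of 14 neutrophil and monocyte markers, 10 rose in het and 12 in hom and none fell, and their summed level went from 1931 to 2052 CPM in WT to 2600 to 3027 in het and 3247 to 3505 in hom. Of 4 tested eosinophil markers 2 rose in het and 4 in hom, with Ear1 at 0 throughout, and the sum was 75.9 to 77.9 CPM in WT, then 102 to 104 in het and 113 to 133 in hom.

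Mast cell and basophil markers, which share GATA factors with the erythroid lineage, rose in 4 of 11 and fell in 2 of 11 in het, and rose in 6 and fell in 2 in hom. Their sum was 1265 to 1303 CPM in WT, against 1391 to 1442 in het and 1386 to 1458 in hom, with Tpsab1 at 0 in all 3 groups. The largest parts of this sum were Kit, by which all these cells were sorted, and Srgn. In WT, het and hom HPC Kit averaged 452.5, 586.4 and 518.9 CPM and Srgn 473.2, 532.6 and 540.9. Gzmb averaged 177.5, 89.8 and 78.7 CPM, and Cpa3 57.2, 69.4 and 102.2. The sum therefore does not give the direction of the rarer markers. Of 12 tested genes of the HSC marker list 4 rose and 2 fell in het, and 4 rose and 4 fell in hom. Their sum was 1693 to 1860 CPM in WT, 2260 to 2268 in het and 1906 to 2101 in hom. The list also holds Kit, Cd34, Flt3 and Cd48, whose means were no lower in WT HPC than in WT HSC. In WT, het and hom HPC Cd34 averaged 705.8, 801.2 and 709 CPM and Flt3 187.9, 376.7 and 263.1. Hlf, higher in WT HSC, averaged 78.0, 135.4 and 108.9 CPM. The sum is therefore not a measure of HSC identity. Slamf1, whose product was used to sort these cells as negative, averaged 10.7 CPM in WT, then 3.58 in het and 6.66 in hom HPC, and fell by 1.58 ± 0.19 in het (edgeR adjusted p = 1.62e-05) and by 0.68 ± 0.18 in hom (edgeR adjusted p = 0.0179). The 10 erythroid members summed to 745 to 817 CPM in WT, against 663 to 736 in het and 654 to 732 in hom HPC. The part of these other cell types in the changes of the members was not tested.

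Over the 9 HPC libraries, the 5 genes whose log2 CPM was most like that of Gata1, of 13854 tested, were Mfsd2b (r = 0.976), Alox5 (0.974), Pde5a (0.97), Gp9 (0.967) and Gp5 (0.966). These libraries share the genotype effect, and the choice of HPC libraries alone was made after the values had been seen. Over all 18 libraries, with the mean of each population taken away, the most like were Slc30a1 (0.867), Il1a (0.861), Gm31812 (0.856), Zgrf1 (0.853) and Htr2a (0.85), where the few Gata1 counts of HSC weigh heavily. Mfsd2b, the gene for the sphingosine-1-phosphate exporter of red cells and platelets, was at 34.3, 32.9 and 44.1 CPM in WT, then 16.7, 20.7 and 18.6 in het and 29.5, 49.1 and 40.7 in hom HPC. Gp9 and Gp5 encode parts of the platelet receptor for von Willebrand factor, and the Gp5 libraries lay at 14.5, 14.2 and 16.2 CPM in WT, against 3.96, 6.08 and 5.62 in het and 8.62, 15.3 and 11.7 in hom. In both genes the het libraries were the lowest, and of the hom libraries replicate 1 was the lowest and replicate 2 the highest, as for Gata1. Since the genes were picked for their likeness to Gata1 over these libraries, this shared order follows from the choice.

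**Figure D4:**
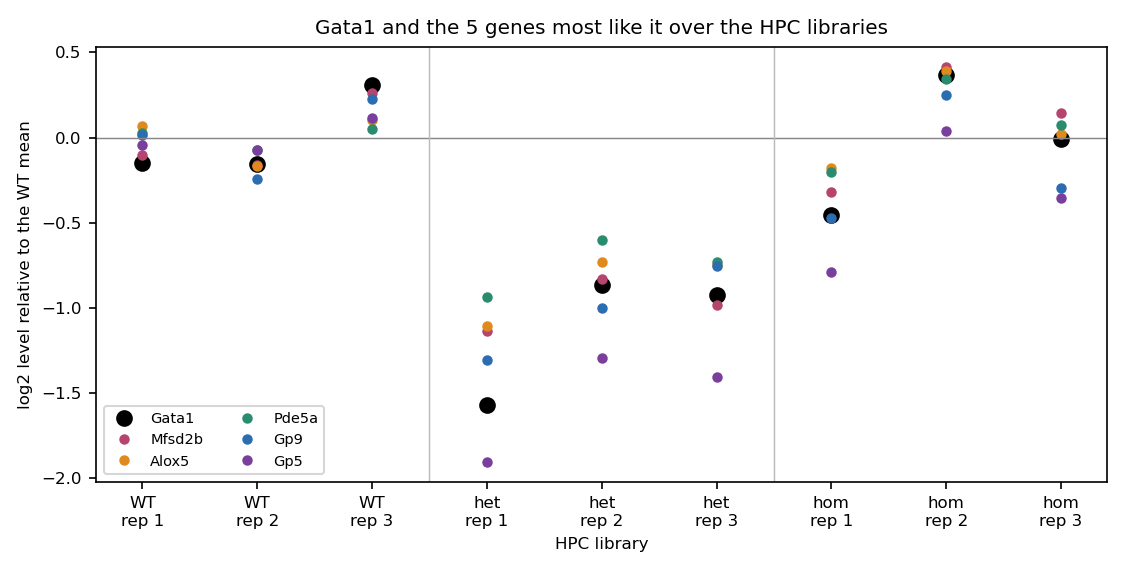
Log2 level of Gata1 (large black points) and of the 5 genes most like it in each HPC library, relative to the mean of the WT libraries. The 3 het libraries were low for all 6 genes, with Gata1 at -1.57 in het replicate 1, and hom replicate 1 was below the other hom libraries. The 5 genes were picked by their correlation with Gata1 over these libraries, so the shared pattern follows from the choice.

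Among the members themselves, the pairs that varied most together over the 9 HPC libraries were Zfpm1 with Hemgn (r = 0.82), Ermap with Rhag (0.808) and Gata1 with Zfpm1 (0.779). Gata1 with Klf1 had r = 0.732. The pairs that ran most against each other were Car1 with Car2 (-0.89) and Gfi1b with Ermap (-0.83). These values describe 9 libraries that share genotypes and culture, and they take in the differences between groups. Within a group the members differed in how closely the libraries agreed: the coefficient of variation over the HPC groups was 2.34% to 7.46% for Car2 and 2.47% to 9.73% for Hemgn, but 19.3% to 27.9% for Gata1 and 30.8% to 40.7% for Rhag.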

How the data were processed

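Polyadenylated RNA was measured in 18 libraries (6 groups of 3). The authors deposited raw counts per gene in 1 table for each population. Per the file headers, featureCounts 2.0.6 counted read pairs over the exons of each gene, unstranded. Per the submitters' processing notes, reads were trimmed with Trim Galore 0.6.10 and aligned with STAR 2.7.11a. The notes name the mm39 build, the file headers an mm10 annotation, and coordinates are printed as the tables give them. The CUT&Tag samples were not analysed here.

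Counts were tested with edgeR 4.0.16 (R 4.3.3; quasi-likelihood F test, robust, TMM factors, filterByExpr with a minimum count of 10) in 1 fit of 9 libraries per population and 1 fit of 18 for comparisons across populations. P-values were adjusted by Benjamini-Hochberg over all genes tested, and a call is an adjusted p under 0.05. CPM use the TMM factors of the 18-library fit, log2 CPM a prior count of 0.5, and TPM the deposited exon lengths. Intervals at the 95% level cover counting error only. The tests were tried on simulated data, and no 2 libraries of a group matched within sampling noise.

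The 10 members, 9 gene lists (156 entries, 155 found: erythroid regulators, late erythroid, haem synthesis, iron, megakaryocyte, mast cell and basophil, eosinophil, neutrophil and monocyte, and HSC markers) and comparisons were chosen with earlier results of these data known. Named genes are the members, Runx2, up to 4 called genes of a list per comparison by p, and the 5 genes most correlated with Gata1. Genes such as Alas2, Hba-a1, Slc4a1, Hbb-bt and the sort markers were named after their values were seen, and some genes under the rule are not reported here. The alternatives were no filter, a replicate block, each library left out, RLE size factors and DESeq2 1.42.0. Promoters are from RefSeq (GRCm38.p6).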

Additional observations from a re-analysis of the deposited data

Results flagged for a closer look

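The effect of the het genotype differed between HSC and HPC for 2 members, by a test of the difference itself that was added after the values had been seen. For Zfpm1 the log2 effect was 0.76 ± 0.14 higher in HSC than in HPC (edgeR adjusted p = 0.00632), with every het library above every WT library in HSC and below it in HPC. For Hemgn it was 0.58 ± 0.11 higher (edgeR adjusted p = 0.00659), with the het libraries overlapping WT in HSC and all below WT in HPC. Het and WT libraries did not overlap for 23.2% of all genes tested in HSC and 33.6% in HPC. Within HSC the rise of Zfpm1 in het did not pass (edgeR adjusted p = 0.308). Cell type and donor sex cannot be told apart in these values.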

How the results depend on the processing

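No direction reversed under an alternative where either value was called. Over all members, comparisons and settings, 824 single-gene values stayed on their side of the threshold, 31 lost a call and 15 gained one. The counts of members called in the 3 HPC comparisons stayed within 1.5 times of 3, 5 and 6 under DESeq2, RLE, no filter and the replicate block. Without the filter, members called in HSC were 2 in hom against WT (300 genes became 898), 1 in het against WT (5 genes became 399) and 1 in hom against het (2 genes became 511), with Tfrc (edgeR adjusted p = 0.0163 and 0.00588) and Hemgn (0.0324) added. In HPC, Tfrc was called in hom against het (0.0349). For the difference of the hom effect no filter gave 3 members and 738 genes (431 in the main fit), and for that of the het effect 592 genes (300). DESeq2 called 794, 192 and 160 genes in the HSC comparisons in the same order, 760 with 2 members for the hom difference and 479 for the het difference. The cause was not tested, except that no filter tests more genes.

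The replicate numbers did not clearly pair the libraries. Correlations of same-numbered libraries ran from -0.111 to 0.122 in HSC and -0.109 to 0.208 in HPC. Those of differently numbered libraries ran from -0.159 to 0.182 and from -0.261 to 0.262. In HSC 2 of 9 and in HPC 5 of 9 libraries correlated best with their own number, so a pairing in HPC stays possible. The replicate block gave 189 genes in HSC hom against WT and 1 member, Zfpm1, for the hom difference (edgeR adjusted p = 0.0244), and moved no other count of members. With the block the edgeR adjusted p of Gata1 in HPC went from 0.0125 to 7.7e-05 in het against WT. In hom against het it went from 0.0210 to 0.000241. That of Hemgn in HSC hom against WT went from 0.0205 to 0.0490.

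With each library left out in turn, members called ranged from 0 to 1 in HSC hom against WT, 3 to 5 in HPC hom against WT, 2 to 5 in HPC hom against het, 8 to 10 in WT HSC against WT HPC and 0 to 1 for the hom difference. They stayed at 3 in HPC het against WT, 2 for the het difference and 0 in the other HSC comparisons. The hom difference of Zfpm1 was called without HSC hom replicate 1 or HPC hom replicate 2 (edgeR adjusted p = 0.0174 and 0.0273). All genes called ranged from 48 to 638 in HSC hom against WT, 2 to 7 in HSC het against WT, 1 to 408 in HSC hom against het, 701 to 1179 in HPC hom against het, 149 to 941 for the hom difference and 138 to 292 for the het difference. Depth limits Gata1, Klf1, Car1, Ermap and Rhag in HSC.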
